A study of Danio rerio with 12 samples.

Results

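The 8 zebrafish genes described here carry out or control the making and recycling of bile acids: cyp7a1, cyp7b1, nr1h4, nr0b2a, abcb11b, slc10a2, fgf19 and fgfr4. Each array probe whose RefSeq accession belongs to 1 of these genes was taken, whatever its value. This gave 9 of the 43603 probes on the array, for 5 genes: 3 probes for cyp7a1, 2 each for slc10a2 and fgfr4, and 1 each for nr1h4 and fgf19. No probe was matched by accession to cyp7b1, an oxysterol hydroxylase, to nr0b2a, the small heterodimer partner, or to abcb11b, a bile salt export pump, and these 3 genes were not analysed here. Of the 9 probes, 8 entered the tests, because 1 probe of cyp7a1 was well above background on only 1 of 11 arrays.

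Bile acids are made from cholesterol in the liver, released with bile into the gut, taken up again in the distal gut and returned to the liver. Cyp7a1 catalyses the first and rate-limiting step of the classic route. In mammals the bile acid receptor FXR, encoded by nr1h4, senses the product, and gut FXR induces FGF19, which acts through FGFR4 on hepatocytes to repress CYP7A1. The liver X receptors (LXRs) are nuclear receptors for oxysterols, and the mouse Cyp7a1 gene is a known LXR target, whereas the human gene is not induced in that way.

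The series asked what LXR activation does in zebrafish larvae. Wild-type WIK larvae were given T0901317 or GW3965, both synthetic LXR agonists, or only the DMSO solvent, which stood at 0.1% in all wells including the controls. Exposure ran from 4 to 6 days post fertilization in 3 mL of medium and was renewed after 24 h. As labelled, T0901317 was at 2 mM and GW3965 at 1 mM, so a difference between the agonists is also a difference between doses. The labels may have lost a micro sign from these units, which could not be checked here. Each array held RNA of 1 pool of 30 whole larvae, without any transgene or mutation. The groups compared were 3 T0901317, 4 GW3965 and 4 DMSO arrays, since the authors left out the T0901317 array numbered replicate 2.

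Values per array are given by replicate number (1, 3 and 4 for T0901317). Signals are 1-colour intensities scaled to a common 75th percentile, which lay between 331.6 and 390.5 on the 11 arrays before scaling, and 78.8% to 83.2% of probes were well above background. Within a group, arrays correlated at 0.987 to 0.994 over probes. The left-out array correlated with its group at 0.949 to 0.956. Each of the 3 slides held 1 group, so an effect of the slide cannot be told apart from that of the treatment. The labels do not say that the pools came from separate clutches, so p-values measure the spread between these pools. In RNA of whole larvae, fewer cells of a type and less RNA per cell cannot be told apart.

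Cyp7a1 was higher under both agonists at 1 of its probes. On probe A_15_P198561 the scaled signal was 1245, 1377 and 665 in T0901317 larvae, 981.4, 836.7, 929 and 830.4 in GW3965 larvae, and 524.3, 428, 414.2 and 321.5 in DMSO larvae. Every agonist array lay above every DMSO array, whereas the agonist groups overlapped each other. The spread was unequal: the standard deviation of the log2 signal was 0.57 under T0901317, 0.12 under GW3965 and 0.29 in DMSO, and the T0901317 array of replicate 4 stood well below the other 2 of its group. In log2 units the increase had a 95% interval of 0.81 to 1.84 under T0901317 (2.51-fold, limma adjusted p = 0.0149) and of 0.62 to 1.58 under GW3965 (limma adjusted p = 0.0149). An exact permutation test over the arrays gave p = 0.0286 two-sided for each agonist, the smallest p that these group sizes allow. This p was not adjusted for the number of probes. It largely follows from the separation of the groups, so it is no separate support. The increase with T0901317 was no longer called without T0901317 replicate 1 (adjusted p = 0.0714), without T0901317 replicate 3 (adjusted p = 0.0533) or when the 2 groups were fitted alone (adjusted p = 0.0624). The GW3965 call held under all 22 alternatives, with a highest adjusted p of 0.0436. Between the agonists the log2 difference was 0.23 ± 0.23 (SE), with an interval of -0.29 to 0.74 (limma adjusted p = 0.811).

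The second cyp7a1 probe gave a different picture. On probe A_15_P116988 the scaled signal was 264.6, 316.7 and 146.8 in T0901317 larvae, 376.6, 353.5, 318.8 and 208.8 in GW3965 larvae, and 227.6, 187.2, 206.3 and 148.5 in DMSO larvae. The T0901317 values spanned the DMSO range, and the lowest GW3965 array lay inside it. The log2 difference from DMSO was 0.28 ± 0.27 with T0901317 (interval -0.32 to 0.88, limma adjusted p = 0.745) and 0.69 ± 0.25 with GW3965 (interval 0.13 to 1.25, limma adjusted p = 0.164). Without T0901317 replicate 4 the T0901317 value became 0.61 (adjusted p = 0.308). With all replicate 4 arrays left out, an alternative chosen after seeing the data, the GW3965 value was 0.76 and passed the test (adjusted p = 0.0206). The T0901317 difference on the first probe, 1.33, lay above the interval found on the second, but its own interval (0.81 to 1.84) overlapped that interval. The difference between the 2 probes was not tested. Between T0901317 and GW3965 the second probe differed by -0.41 ± 0.27 (interval -1.02 to 0.19, limma adjusted p = 0.656). Against DMSO, the exact permutation test at this second probe gave an unadjusted p = 0.429 for T0901317 and p = 0.0571 for GW3965.

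The third cyp7a1 probe was near background throughout. On probe A_15_P376760 the scaled signal was 4.63, 7.1 and 8.86 in T0901317 larvae, 4.16, 4.44, 5.71 and 1.94 in GW3965 larvae, and 4.54, 4.7, 3.17 and 4.94 in DMSO larvae. It was well above background only on the T0901317 array of replicate 4, so no fold is given for it.

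Over all 36737 probes tested, 2.54% were called at an adjusted p under 0.05 with T0901317, 5.38% with GW3965 and 4.4% between the agonists. With T0901317, 1.42% were called higher and 1.12% lower, against 2 higher and 0 lower of the 8 tested probes of the bile acid genes. With GW3965, 1.14% were higher and 4.24% lower, against 1 and 1 of the 8 probes. Between T0901317 and GW3965, 4.28% were higher and 0.114% lower, against 1 and 0 of the 8. All these calls fell on 1 probe of cyp7a1 and 1 probe of fgfr4. Counts of so few probes are a description, and both agonist contrasts share the 4 DMSO arrays. The remaining genes, nr1h4, fgf19 and slc10a2, had no call in any comparison.

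**Figure D1:**
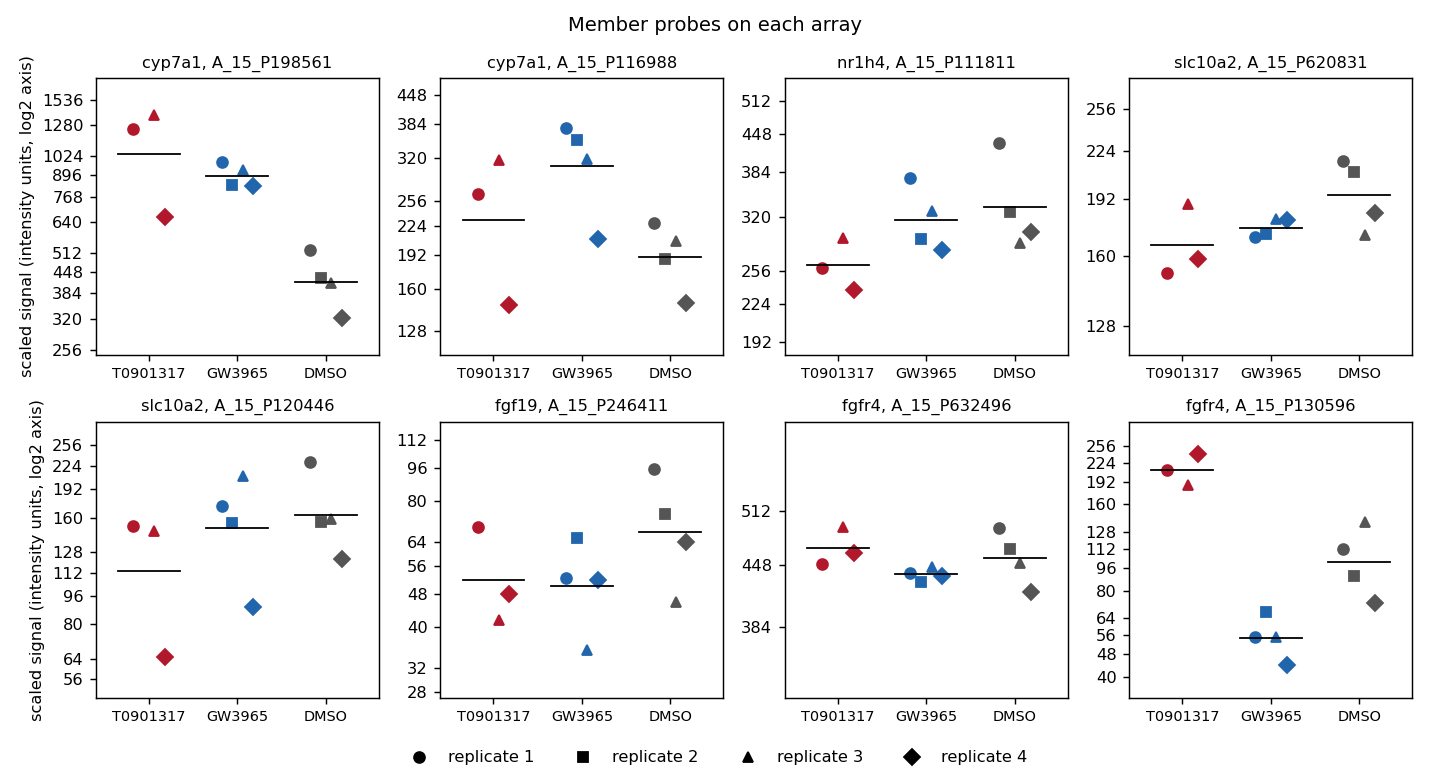
Scaled signal (intensity units, log2 axis) of the 8 tested probes on each array, with T0901317, GW3965 and DMSO from left to right, symbols for replicate numbers and a bar at the mean of the log2 values. All agonist arrays lie above the DMSO arrays for cyp7a1 probe A_15_P198561, and the 3 groups are separate for fgfr4 probe A_15_P130596.

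Nr1h4, the bile acid receptor that restrains synthesis, was read by a single probe, A_15_P111811. Its scaled signal was 259.7, 293 and 237.2 in T0901317 larvae, 374.9, 291.6, 326.9 and 279.7 in GW3965 larvae, and 432.1, 326.2, 287.9 and 300.8 in DMSO larvae. The T0901317 arrays were mostly below the DMSO arrays but overlapped them, and the GW3965 arrays lay within or just under the DMSO range. The log2 difference from DMSO was -0.34 ± 0.15 with T0901317 (limma adjusted p = 0.336) and -0.07 ± 0.14 with GW3965 (limma adjusted p = 0.841). The 95% interval was -0.68 to -0.01 with T0901317 and -0.38 to 0.24 with GW3965, so neither holds a change as large as 1 log2 unit.

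Fgf19, in mammals the gut hormone that carries the bile acid signal to the liver, did not pass the test. On probe A_15_P246411 the scaled signal was 69.4, 41.7 and 48 in T0901317 larvae, 52.5, 65.4, 35.3 and 51.8 in GW3965 larvae, and 95.3, 74.7, 46 and 63.8 in DMSO larvae. All groups overlapped, and replicate 3 was the lowest array of each group. The log2 difference was -0.39 ± 0.27 with T0901317 (interval -0.98 to 0.21, limma adjusted p = 0.604) and -0.43 ± 0.25 with GW3965 (interval -0.99 to 0.12, limma adjusted p = 0.393).

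Fgfr4, in mammals the hepatocyte receptor for FGF19, had 2 probes that disagreed. Probe A_15_P632496 varied little, at 448.4, 491.9 and 461.1 in T0901317 larvae, 439.2, 429.3, 445.2 and 435.3 in GW3965 larvae, and 490.6, 465.4, 449.3 and 418.1 in DMSO larvae. Its log2 difference from DMSO was 0.04 ± 0.08 with T0901317 (interval -0.13 to 0.20, limma adjusted p = 0.906) and -0.06 ± 0.07 with GW3965 (interval -0.21 to 0.10, limma adjusted p = 0.722). These were the narrowest intervals of the 8 probes. The T0901317 arrays lay just above the GW3965 arrays without overlap, by 0.09 ± 0.08 in log2 units (limma adjusted p = 0.742).

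Probe A_15_P130596, assigned to fgfr4 by its accession, moved in opposite directions under the agonists. What this probe hybridises to was not checked, since its sequence was not used here. Its scaled signal was 210.2, 186.9 and 239.5 in T0901317 larvae, 55.3, 67.2, 55.2 and 43.9 in GW3965 larvae, and 112.2, 90.1, 138.4 and 72.3 in DMSO larvae. The 3 groups did not overlap. The probe rose by 1.07 ± 0.21 in log2 units with T0901317 (2.11-fold, interval 0.61 to 1.54, limma adjusted p = 0.0244) and fell by 0.87 with GW3965 (SE 0.19, 1.83-fold lower, interval -1.30 to -0.45, limma adjusted p = 0.0262). Between T0901317 and GW3965 the log2 difference was 1.95 ± 0.21 (3.85-fold, interval 1.49 to 2.41, limma adjusted p = 0.000373).

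The calls against DMSO at this fgfr4 probe depended on single arrays. With T0901317 the call ended without DMSO replicate 2 (adjusted p = 0.0734), T0901317 replicate 1 (0.0826) or T0901317 replicate 4 (0.0951), and when the 2 groups were fitted alone (0.0618). With GW3965 it ended without DMSO replicate 1 (adjusted p = 0.0667), DMSO replicate 3 (0.0612), GW3965 replicate 1 (0.0589), GW3965 replicate 3 (0.0663) or GW3965 replicate 4 (0.0718), and its size dropped to -0.43 with a normexp background correction (adjusted p = 0.0463). The difference between the agonists was called under all 21 alternatives that held this probe (highest adjusted p = 0.00407), at 1.17 with normexp. The fit with 1 brightest probe per gene held the other fgfr4 probe only.

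**Figure D2:**
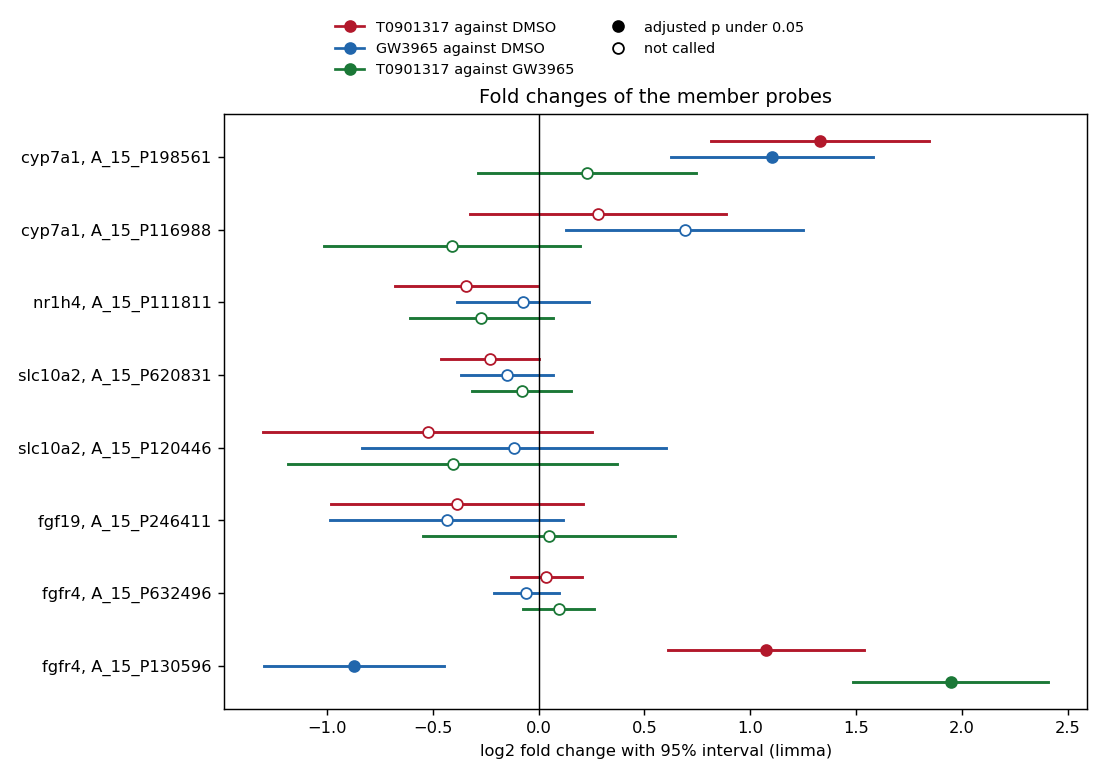
Log2 fold change with its 95% interval (limma) of the 8 tested probes in the 3 comparisons. Filled points, at an adjusted p under 0.05, are found only at cyp7a1 probe A_15_P198561 (1.33 with T0901317) and fgfr4 probe A_15_P130596 (1.07, -0.87 and 1.95).

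Slc10a2, the sodium-dependent transporter that takes bile acids up from the distal gut, did not pass the test at either probe. On probe A_15_P620831 the scaled signal was 151.7, 188.9 and 158.4 in T0901317 larvae, 169.8, 171.5, 180 and 179.2 in GW3965 larvae, and 217, 208.9, 170.8 and 183.3 in DMSO larvae. The lower DMSO arrays lay among the agonist arrays. The log2 difference was -0.23 ± 0.11 with T0901317 (limma adjusted p = 0.359) and -0.15 ± 0.10 with GW3965 (limma adjusted p = 0.465).

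The second slc10a2 probe was more variable. On probe A_15_P120446 the scaled signal was 151.5, 147.1 and 64.6 in T0901317 larvae, 172.9, 154.8, 209.3 and 89.5 in GW3965 larvae, and 229.3, 155.8, 158.8 and 122.3 in DMSO larvae. The log2 difference was -0.52 ± 0.35 with T0901317 (limma adjusted p = 0.583) and -0.12 ± 0.33 with GW3965 (limma adjusted p = 0.893). Without T0901317 replicate 4 the T0901317 value was -0.12. Replicate 4 was the lowest array of all 3 groups at this probe and at both tested cyp7a1 probes, as it was for 8.87% of all probes tested.

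The other enzymes of bile acid synthesis moved little as a group. Of 38 listed genes, 23 were named on the array and 21 tested, each by its brightest probe: 2 rose and none fell with T0901317, the same count was found with GW3965, and the median log2 difference was 0.04 with T0901317 and 0.07 with GW3965. Over 12092 genes represented in this way, 1.26% rose and 0.968% fell with T0901317, 1.36% rose and 3.2% fell with GW3965, and the median log2 difference was 0.03 with T0901317 and 0.04 with GW3965.

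Abcd3a encodes a transporter of the peroxisomal membrane, which in mammals brings bile acid precursors to the site where their side chain is shortened. Its scaled signal was 4106, 5205 and 4186 in T0901317 larvae, 4492, 4532, 4820 and 4847 in GW3965 larvae, and 2961, 2685, 2678 and 2687 in DMSO larvae. No agonist array overlapped the DMSO arrays. Abcd3a rose by 0.70 ± 0.09 in log2 units with T0901317 (limma adjusted p = 0.00339) and by 0.76 ± 0.09 with GW3965 (limma adjusted p = 0.000832), and neither call ended under any of the 22 alternatives.

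Ch25hl1.1, a gene of the cholesterol 25-hydroxylase family, which makes an oxysterol, also rose under both agonists. Its scaled signal was 1138, 1190 and 987.1 in T0901317 larvae, 995.3, 1115, 1135 and 1125 in GW3965 larvae, and 813.6, 736.6, 621 and 608.8 in DMSO larvae. The log2 difference was 0.68 ± 0.12 with T0901317 (limma adjusted p = 0.0137) and 0.66 ± 0.11 with GW3965 (limma adjusted p = 0.00558), and the groups did not overlap DMSO. The T0901317 call ended without T0901317 replicate 1, without T0901317 replicate 3, when the 2 groups were fitted alone and when all replicate 4 arrays were left out (highest adjusted p = 0.0669).

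Ch25hl2, of the same family, was called only between T0901317 and GW3965, by 0.69 ± 0.14 (limma adjusted p = 0.0197), a contrast in which 2.8% of all genes were higher and 0.132% lower. Its dim signal was 24.2, 28.8 and 32.6 in T0901317 larvae, 14.9, 22.3, 16.9 and 17.1 in GW3965 larvae, and 18.6, 18, 20.2 and 21.8 in DMSO larvae. The log2 difference from DMSO was 0.53 with T0901317 (limma adjusted p = 0.092) and -0.16 with GW3965 (limma adjusted p = 0.588). The call between the agonists ended under 10 of 22 alternatives (highest adjusted p = 0.375). Among them were normexp (0.17, the lowest of values up to 1.11) and quantile normalization. The removal of T0901317 replicate 3 or 4 or GW3965 replicate 1, 3 or 4 also ended it. Among the uncalled enzymes with the smallest p-values, hsd3b7, which acts after cyp7a1, stood at -0.26 with T0901317 (limma adjusted p = 0.278).

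Of 31 listed regulators, 25 were tested and 1 rose and 1 fell with each agonist, against 1.26% and 0.968% of all genes with T0901317 and 1.36% and 3.2% with GW3965. None was called at its brightest probe between T0901317 and GW3965, where 3 had an unadjusted limma p under 0.05. Over all 36737 probes tested, 4531 did in that contrast. Nr1h3, which encodes LXR alpha, rose at its brightest probe and at 1 of the other probes under both agonists (0.68 and 0.62 in log2 units at that second probe, limma adjusted p = 0.00881 with T0901317 and 0.00528 with GW3965), while the third probe was not called (0.62 and 0.42). At the brightest probe the T0901317 call ended without DMSO replicate 2 or 3 or any 1 T0901317 array, with the 2 groups fitted alone and without all replicate 4 arrays (highest adjusted p = 0.0952). The GW3965 call of nr1h3 at that probe ended without all replicate 4 arrays (limma adjusted p = 0.0604). Nr5a5, of the receptor family that includes LRH-1, a mammalian activator of Cyp7a1, fell by 0.50 with T0901317 (SE 0.11, limma adjusted p = 0.0462) at its brightest probe. Its signal was 1666, 2012 and 1767 in T0901317 larvae, against 2985, 2455, 2200 and 2683 in DMSO larvae. The nr5a5 call ended under 14 of 22 alternatives, including the removal of any 1 array other than DMSO replicate 3 (highest adjusted p = 0.256). Its 4 probes differed, with 1 other called lower with T0901317 (-0.46) and another called lower with GW3965 (-0.66). The probe called lower with GW3965 was also called higher between T0901317 and GW3965 (0.55, limma adjusted p = 0.00878). In that contrast 4.28% of all probes were called higher, and the brightest nr5a5 probe stood at -0.30, not called.

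The other receptors of the FGF family were examined beside fgfr4. Fgfr1a fell by 0.39 with GW3965 (SE 0.09, limma adjusted p = 0.0257). Its scaled signal was 314.7, 323.1, 288.5 and 288.1 in GW3965 larvae, against 387.4, 417.9, 409.2 and 373.4 in DMSO larvae, without overlap. The call ended without DMSO replicate 2, DMSO replicate 3, GW3965 replicate 3, GW3965 replicate 4 or all replicate 4 arrays (highest limma adjusted p = 0.115). The other 2 fgfr1a probes were not called (-0.22 and 0.27). Neither fgfr2 nor fgfr3 was called at its brightest probe in any comparison.

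Of 31 listed transport genes, 18 were tested and none passed the test in any comparison, with median log2 differences of 0.01 with T0901317 and 0.03 with GW3965. At an unadjusted limma p under 0.05 there were 1 with T0901317, 4 with GW3965 and 2 between the agonists. Over all 36737 probes tested, the same counts were 5289, 6933 and 4531. The motor protein gene myo5b, which in mammals serves traffic to the canalicular membrane, came nearest, at -0.42 with GW3965 (limma adjusted p = 0.0545). Its signal was 147.8, 171.8, 151.2 and 201.8 in GW3965 larvae, against 227.9, 213.1, 212.6 and 242 in DMSO larvae. The exporter abcc4 stood at 0.38 with T0901317 (limma adjusted p = 0.102) and 0.33 with GW3965 (limma adjusted p = 0.0849). Fabp6, the ileal bile acid binding protein, stood at 0.07 and 0.17, and slc51a, a subunit of the basolateral bile acid exporter, at -0.11 and -0.02.

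**Figure D3:**
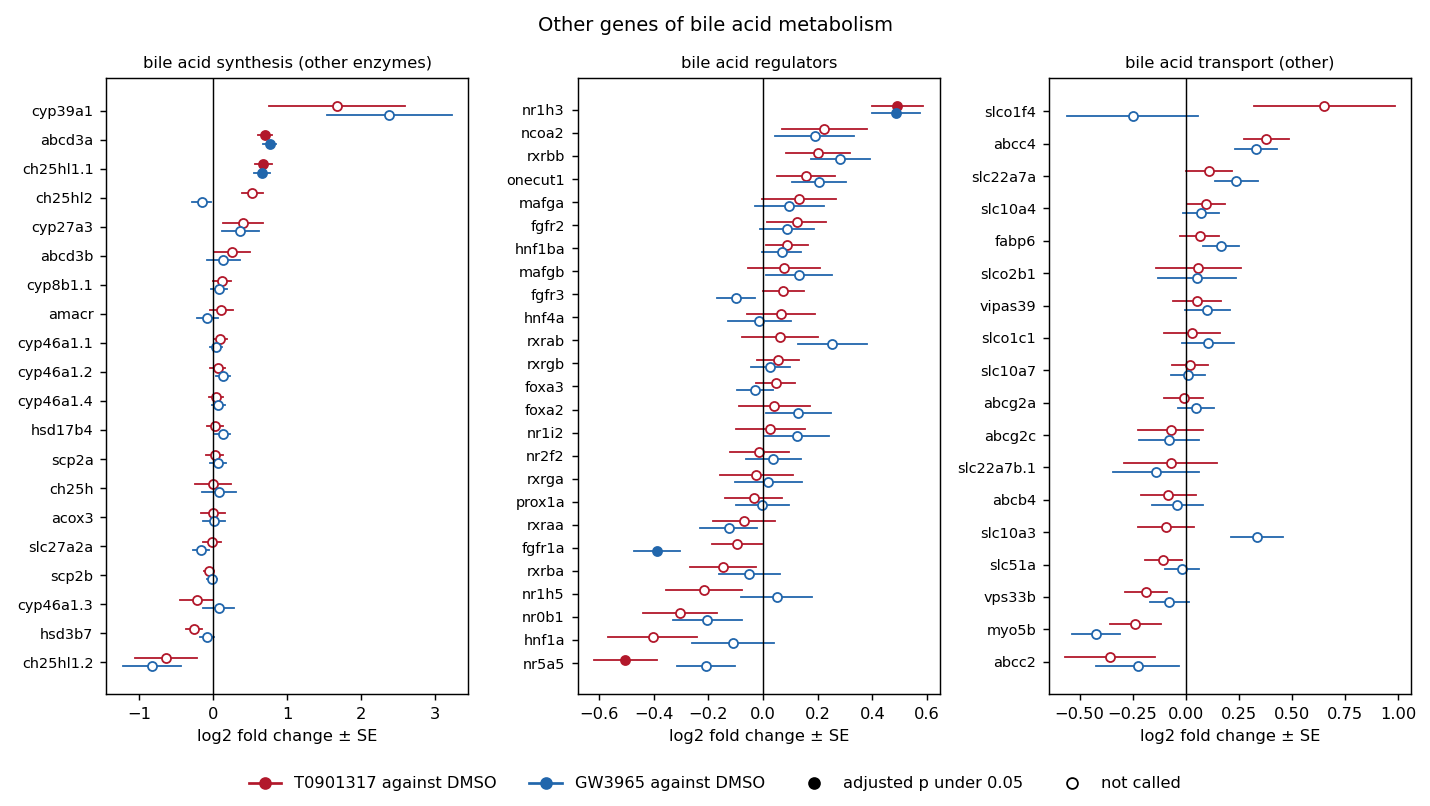
Log2 fold change ± SE (limma) against DMSO of other tested genes of bile acid synthesis, regulation and transport, 1 brightest probe per gene, with T0901317 drawn above GW3965. Filled points passed the test: abcd3a, ch25hl1.1 and nr1h3 under both agonists, nr5a5 with T0901317 and fgfr1a with GW3965.

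Markers of the organs that use these genes were read by their brightest probes. All tested markers were above background on some array of each group. Of 9 hepatocyte markers, 1 rose with T0901317, and 1 rose and 1 fell with GW3965. Of all genes, 1.26% rose and 0.968% fell with T0901317, and 1.36% rose and 3.2% fell with GW3965. With T0901317, 3 of the 9 were above DMSO (median log2 difference -0.13), and with GW3965 4 were (median -0.08). Their summed signal, which the brightest genes carry, ranged from 325400 to 358600 in T0901317 larvae, from 287700 to 361700 in GW3965 larvae and from 284800 to 325900 in DMSO larvae. The marker that rose under both was fabp10a, the liver fatty acid binding protein, at 0.47 with T0901317 (limma adjusted p = 0.0431) and 0.40 with GW3965 (limma adjusted p = 0.0389), calls that ended under 13 of 22 alternatives with T0901317 and 14 with GW3965 (highest adjusted p = 0.196). These included the removal of any 1 array except DMSO replicate 1 and GW3965 replicate 3 in both contrasts, and GW3965 replicate 2 in the first. The other fabp10a probe was not called (0.26 with T0901317, 0.27 with GW3965). The marker that fell was cp, which encodes ceruloplasmin, at -0.40 with GW3965 (limma adjusted p = 0.0285). That call ended without DMSO replicate 1 or 3 or GW3965 replicate 1, 3 or 4. It also ended with the excluded array put back and without all replicate 4 arrays (highest limma adjusted p = 0.113). The other cp probes were not called (-0.34 and -0.29 with GW3965).

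Of 9 enterocyte markers, 1 rose and 3 fell with T0901317, where 1.26% of all genes rose and 0.968% fell, and 1 rose and 1 fell with GW3965, where 1.36% rose and 3.2% fell. Of the 9, 2 were above DMSO with each agonist (median log2 difference -0.15 with T0901317 and -0.17 with GW3965). The summed signal of the 9, which the brightest genes carry, was 71360 to 82800 in T0901317 larvae, 78860 to 87560 in GW3965 larvae and 67670 to 85100 in DMSO larvae. The apolipoprotein gene apoa4a rose under both agonists (0.89 with T0901317, 0.65 with GW3965) and the amino acid transporter gene slc6a19a.1 fell under both (-1.30 and -1.25, or -0.47 and -0.50 with normexp). With T0901317, apoa4b.1 fell by 0.54 and chia.3 fell by 1.45. The apoa4b.1 call ended with the 2 groups fitted alone and without all replicate 4 arrays (highest limma adjusted p = 0.0877). The chia.3 call ended without T0901317 replicate 1 (limma adjusted p = 0.0549). Between T0901317 and GW3965, where 0.132% of all genes were lower, apoa4b.1 (-0.40 in log2 units) and chia.3 (-1.05) were called lower. In this contrast the apoa4b.1 call ended with the replicate block (limma adjusted p = 0.0553). Removing T0901317 replicate 1 or 4, GW3965 replicate 2 or 4, or all replicate 4 arrays also ended it (highest limma adjusted p = 0.172). In the same contrast the chia.3 call ended without any 1 T0901317 array or GW3965 replicate 2. It also ended with the 2 groups fitted alone and without all replicate 4 arrays (highest limma adjusted p = 0.153). No other probe of apoa4b.1 or chia.3 was called between the agonists. None of 3 ileum-like markers, 1 of them slc10a2, and no cholangiocyte marker of 6 passed the test in any comparison. At an unadjusted limma p under 0.05 there were 0 ileum-like markers, and 1 cholangiocyte marker with each agonist. Over all 36737 probes tested, there were 5289 with T0901317 and 6933 with GW3965. The part of these shifts in the cyp7a1 and slc10a2 values was not tested.

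The genes whose profile over the 11 arrays was most like that of cyp7a1 included enzymes of cholesterol synthesis. Among 12046 genes, each centred on its DMSO mean, the smallest root mean square log2 differences from cyp7a1 probe A_15_P198561 were 0.253 for msmo1, 0.266 for sc5d, 0.289 for zgc:171470 and 0.295 for cyp2x10.2. Msmo1 and sc5d act late in sterol synthesis, and cyp2x10.2 is a cytochrome P450. All 4 were called higher under both agonists, by 1.39 to 1.71 in log2 units with T0901317 and by 0.99 to 1.42 with GW3965. The search chose them by these same values, so their calls are no separate evidence. On the T0901317 array of replicate 4 cyp7a1 was the lowest of the 5. All 4 neighbours were also lower there than on the other T0901317 arrays. Above its DMSO mean, cyp2x10.2 stood at 1.21 there, against 1.96 on both other arrays. Msmo1 stood at 1.32 against 1.41 and 1.69, sc5d at 1.39 against 1.47 and 1.53, and zgc:171470 at 1.26 against 1.52 and 1.38. The search had used these values too.

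The brighter fgfr4 probe, A_15_P632496, was most like tcp11l2, c1qtnf1, tlx2 and zfp36l2, none of them called, with differences of 0.047 to 0.052. The same search from probe A_15_P130596, made after its values were seen, gave crygs3 (0.179), lrit1b (0.187), ext1a (0.248) and uck1 (0.255). All 4 were called higher with T0901317, lower with GW3965 and higher between T0901317 and GW3965. These calls too rest on values that the search had used. Crygs3, which encodes a lens crystallin, differed by 1.09 with T0901317, -1.03 with GW3965 and 2.12 between them in log2 units.

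Disagreement between probes of 1 gene recurred among these neighbours. The 2 other probes of ext1a (0.16 and 0.12 with T0901317, 0.01 and -0.06 with GW3965) and the other probe of uck1 (-0.19 and -0.25) were not called, as with the brighter probe of fgfr4. Of the 3 other probes of lrit1b, 2 were called lower with GW3965 (-0.87 and -0.78) and higher between T0901317 and GW3965 (1.26 at the second of them), and the third was not called. Within the DMSO arrays, replicate 3 was the highest for fgfr4 probe A_15_P130596 and for all 4 neighbours. Within the GW3965 arrays, replicate 2 was the highest for all of them. Within the T0901317 arrays, replicate 4 was the highest for this fgfr4 probe, crygs3, lrit1b and uck1, whereas replicate 1 was for ext1a. The search for alike profiles had used all these values.

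**Figure D4:**
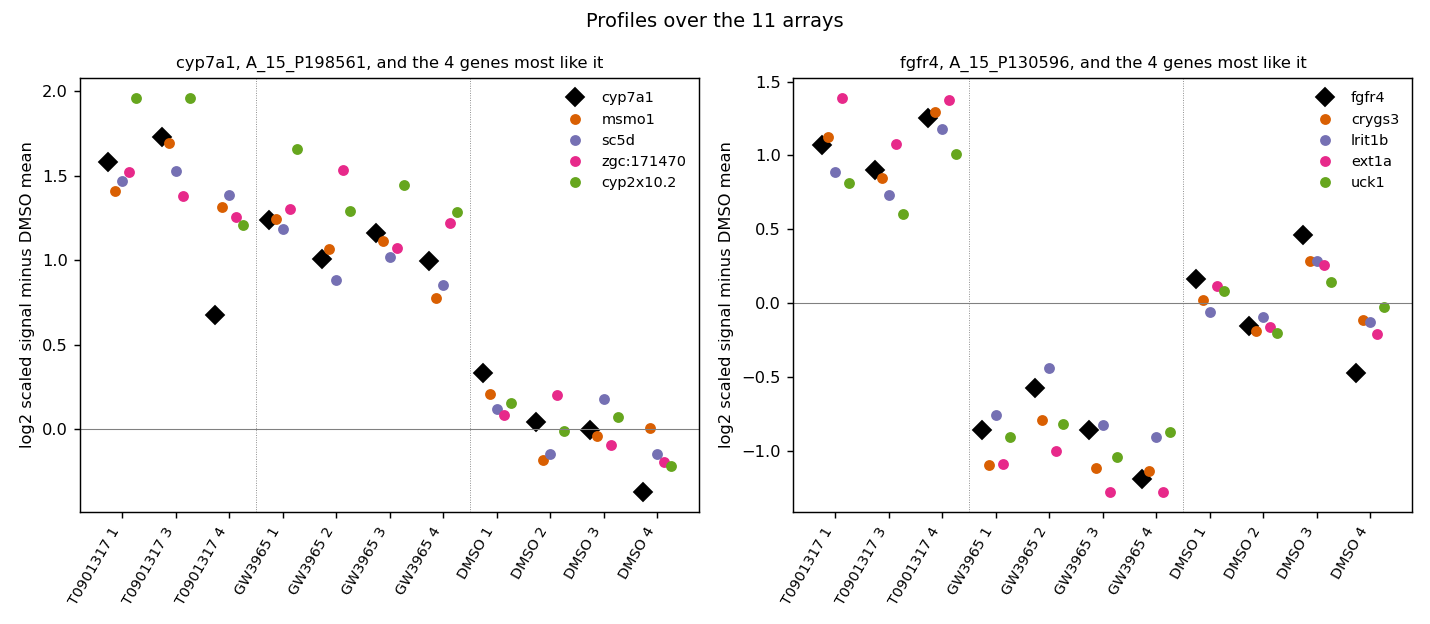
Log2 scaled signal minus the DMSO mean on each of the 11 arrays for cyp7a1 (left) and fgfr4 probe A_15_P130596 (right), as diamonds, with the 4 genes most like each, as circles. The left genes lie above 0 on every agonist array, and the right genes lie above 0 on T0901317 arrays and below 0 on GW3965 arrays. The 4 genes were chosen for likeness on these same arrays.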

How the data were processed

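Total RNA of larval pools was labelled with Cy3 and hybridised to 1-colour Agilent arrays. The deposited intensity values are processed signals, background-subtracted and detrended within each array by the authors with Agilent Feature Extraction 11.0.1.1, per the file headers. The series table held the same intensity values.

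Spots marked as outliers were dropped, spots of a probe averaged, and log2 signals centred on each array's 75th percentile. Scaled signals are these values on the linear scale, multiplied by the geometric mean percentile (360.6). Probes well above background on at least 3 of 11 arrays (36737) were fitted with limma 3.58.1 in R 4.3.3, all 3 groups sharing 1 variance, with Benjamini-Hochberg adjustment and a threshold of 0.05. The number of arrays limits the precision. The fit was tested on simulated data.

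Probes were named through their accessions with a RefSeq gene table: 25069 had a symbol (12858 genes) and 18534 had none. The array design follows genome build Zv8, a build for which no genome was used here, so positions and sequences are not given.

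Every probe of the 8 genes is reported. From the pathway lists, genes called in any comparison were named, with up to 4 more of smallest p (1 gene counted in the lists is not reported here), and for each called gene the 4 most alike profiles. The genes and lists were chosen with earlier results of these data known. Same-numbered arrays deviated together at 0.064 to 0.503 (T0901317 and DMSO), 0.041 to 0.419 (GW3965 and DMSO) and 0.164 to 0.537 (T0901317 and GW3965). By the rule that every pair exceed 0.1, only the agonist arrays counted as paired, a pairing read from the data. The main fit used no pairing in any comparison, and blocking on replicate number was an alternative only. Alternatives covered background correction, scaling, filters, probe choice, arrays left out or put back, the replicate block, the groups fitted and the variance model.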

Additional observations from a re-analysis of the deposited data

Results flagged for a closer look

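The log2 difference between T0901317 and GW3965 at fgfr4 probe A_15_P130596 was 1.95 (limma adjusted p = 0.000373). The probe was higher than DMSO under the first and lower under the second. In this contrast the agonist cannot be told apart from the slide or the dose. The other fgfr4 probe differed by 0.09 in the same contrast (limma adjusted p = 0.742), so the result concerns 1 of 2 probes.

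The T0901317 array of replicate 2 was left out by the authors and entered only the alternative that put it back. At the probes of the bile acid genes it had 4 values above the highest DMSO array. For cyp7a1 these were 856.5 at probe A_15_P198561, against at most 524.3 in DMSO, 370.4 at A_15_P116988, against at most 227.6, and 89.6 at A_15_P376760, against at most 4.94. For fgfr4 probe A_15_P130596 the value was 181.2, against at most 138.4. On this array the lowest signal counted as well above background was 22.04, whereas it was 6.99 to 8.63 on the other 11, and 89.8% of its probes were well above background. The share of all probes that lay above DMSO on this array was not counted, so the 4 values are only a description. The part of that shift in these values was not tested.

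In the GW3965 and DMSO groups no array stood apart from the others at any of the 9 probes by Dixon's test. The T0901317 group of 3 arrays was not put to this test.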

How the results depend on the processing

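Of 24 results (8 probes in 3 comparisons), 20 kept their side of the threshold under every alternative that held their probe (22, or 21 for the dimmer probes of cyp7a1, slc10a2 and fgfr4), 4 did not, and 5 uncalled ones turned sign. The probes called over the array with T0901317 (933) became 609 with 1 probe per gene, 462 with 2 groups alone, 277 without replicate number 4, and 396 to 900 when 1 array was left out. Those with GW3965 (1976) became 940 with the excluded array put back, 933 without replicate number 4, and 1209 to 1917 when 1 array was left out. Those between T0901317 and GW3965 (1616) became 988 with normexp, 855 without replicate number 4, and 1056 to 1591 when 1 array was left out. Of the 8 probes, the called ones numbered 2, 2 and 1. With T0901317 they became 1 with 1 probe per gene, 0 with 2 groups alone, 1 without replicate number 4, and 0 to 2 when 1 array was left out. With GW3965 they became 1 with 1 probe per gene and 1 to 2 when 1 array was left out, and between the agonists 0 with 1 probe per gene and 1 to 1 when 1 array was left out. Fewer genes or samples entered the fits with 1 probe per gene, 2 groups or fewer arrays. The fit with 1 probe per gene did not hold fgfr4 probe A_15_P130596, so its calls could not enter that count of the 8 probes. The cause of the other changed counts was not tested for any alternative. Leaving out replicate number 4 was chosen after seeing the data. It ended the fgfr4 call with T0901317 (0.83, adjusted p = 0.0998).

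In a fit blocked on replicate number (the replicate block), 929 probes were called with T0901317, 2373 with GW3965 and 1592 between the agonists, and cyp7a1 probe A_15_P116988 was called with GW3965 (0.69, limma adjusted p = 0.0145). The block changed no other call of the 8 probes. Of the list genes it ended the T0901317 calls of nr1h3 (limma adjusted p = 0.0562), nr5a5 (0.108) and fabp10a (0.0683) and the GW3965 call of fabp10a (0.0577). It also ended the call of apoa4b.1 between T0901317 and GW3965 (limma adjusted p = 0.0553). The slide block and the series table were not run, because each slide held 1 group and the table's values were identical.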

Other observations

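Among the dim enzyme genes of bile acid synthesis, cyp39a1 and cyp8b1.3 stood high on 1 array. Ch25h, ch25hl1.2, ch25hl2 and abcd3b did not stand high on that array. Cyp39a1, an oxysterol hydroxylase, had a scaled signal of 14.6, 8.64 and 10.1 in T0901317 larvae, 139.3, 10.6, 10.1 and 6.58 in GW3965 larvae, and 1.63, 3.95, 2.49 and 8.32 in DMSO larvae. It was not called in any comparison, and was well above background on 2 of 3 T0901317, 3 of 4 GW3965 and 1 of 4 DMSO arrays. Cyp8b1.3, of the sterol hydroxylase family that sets the kind of bile acid made, was well above background on a single array, the same GW3965 array of replicate 1, at 58.4, against 1.71 to 1.94 on the other GW3965 arrays. Cyp8b1.2 was not well above background on any of the 11 arrays.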
